A study of Mus musculus with 6 samples.

Results

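The genes described here encode the proteins of the cytosolic ribosome. They were chosen by symbol alone, as probe sets named Rpl or Rps with a number and an optional letter or l suffix, together with Rplp0, Rplp1, Rplp2 and Rpsa, leaving out the Rps6k kinases and pseudogenes ending in -ps. Of the 45101 probe sets on the array, 104 met this rule with a single symbol, and they stood for 48 of the 18194 genes named by the platform's single-symbol probe sets. A filter on dim signal, which asked for more than 16 units on 3 or more arrays, left 97 probe sets of 47 genes. The 7 that did not pass lay between 0.9 and 32.7 on every array, and among them was the only single-symbol probe set of Rps16. A further 110 probe sets listed a ribosomal protein symbol beside other symbols. They are not members and name no gene here, which leaves out Rpl3, Rpl5 and Rplp1.

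The cytosolic ribosome is built from a small subunit, which reads the messenger RNA, and a large subunit, which joins the amino acids, each made of ribosomal RNA and many small basic proteins (Rps and Rpl). Cells make these proteins in matched amounts, and their messenger RNAs are among the most abundant in most cells. Most of these messages begin with a short run of pyrimidines, the TOP motif, through which mTOR signalling and the protein LARP1 adjust their translation, and levels of the messages follow a cell's growth and protein synthesis. In the olfactory epithelium, horizontal basal cells are the normally quiescent stem cells that lie on the basement membrane, while globose basal cells divide and give rise to the sensory neurons.

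Cells came from the dissociated olfactory epithelium of CD1 mice and were sorted by flow cytometry with a FITC-coupled antibody against ICAM1 (CD54), an adhesion protein of the cell surface. The ICAM1-positive and the ICAM1-negative cells of 3 separate litters, taken at postnatal days 21, 22 and 24, each gave 1 array, so the groups had 3 arrays each, and age and litter cannot be told apart. Each array pools the cells of a litter, and no genetic change or treatment was applied to either group. RNA was amplified in 2 rounds before hybridisation. Values are linear intensities that had been scaled to the same trimmed mean of 500 on every array, and their precision is limited by the few arrays in each group.

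Icam1 itself read 13, 16.1 and 33.2 in the ICAM1-negative arrays and 7247, 6817 and 6857 in the ICAM1-positive arrays. That follows the sample titles and population labels, and not the free-text descriptions, which name the opposite population. All 10 horizontal basal cell markers were higher in the ICAM1-positive arrays, with summed intensities of 739 to 1221 in the negative and 108841 to 114293 in the positive sort. Markers of macrophages were also higher (11 of 12 genes, summed 1522 to 2087 against 20310 to 25063), as were 4 of 7 sustentacular and 4 of 6 Bowman gland markers. The other 3 sustentacular and 2 Bowman gland markers had negative differences and were not called, so both lists were split in sign. The ICAM1-negative arrays held the neurons: 9 of 9 immature and 9 of 10 mature sensory neuron markers were lower in the positive sort, as were 7 of 8 globose basal markers and 7 of 7 ciliated cell markers. No marker was listed at 0. A difference between these sorts is therefore one between mixtures of cell types, in which fewer cells of a type and less RNA per cell cannot be told apart, and the part of any one cell type in the results below was not tested.

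To show what the DNA at the start of these genes looks like, the first 6 sequences below belong to the 6 genes with the largest positive differences between the sorts and the last 4 to the 4 genes with the smallest or a negative difference among genes that had a promoter in the table. Each runs from 80 bases before to 20 bases after the annotated start, in the gene's direction, from RefSeq promoters of assembly GRCm38.p6, and the first listed start is shown where a gene had several. Capitals mark matches on either strand to 3 short motifs. These were CTTTCC, a pyrimidine run of the TOP kind, CGGAAGT, the core bound by ETS factors such as GABP, and AANATGGC, the core bound by YY1.

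Rpl37, chr15:5116533-5116632, plus strand: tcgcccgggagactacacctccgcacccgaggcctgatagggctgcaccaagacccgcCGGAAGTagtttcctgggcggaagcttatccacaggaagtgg
Rpl22l1, chr3:28805428-28805527, plus strand: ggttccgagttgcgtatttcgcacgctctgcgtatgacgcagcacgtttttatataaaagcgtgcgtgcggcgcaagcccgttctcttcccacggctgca
Rps19, chr7:24884512-24884611, plus strand: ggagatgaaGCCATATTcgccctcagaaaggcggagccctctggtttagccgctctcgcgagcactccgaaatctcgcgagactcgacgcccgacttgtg
Rps24, chr14:24490598-24490697, plus strand: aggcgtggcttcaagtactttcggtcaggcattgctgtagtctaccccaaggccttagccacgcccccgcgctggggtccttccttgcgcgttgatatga
Rps6, chr4:86857348-86857447, minus strand: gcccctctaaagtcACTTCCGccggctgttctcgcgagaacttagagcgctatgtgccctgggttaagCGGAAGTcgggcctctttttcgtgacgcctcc
Rps10, chr17:27635225-27635324, minus strand: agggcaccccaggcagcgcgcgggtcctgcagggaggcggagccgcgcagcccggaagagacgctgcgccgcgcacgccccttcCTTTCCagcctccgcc
Rpl14, chr9:120571437-120571536, plus strand: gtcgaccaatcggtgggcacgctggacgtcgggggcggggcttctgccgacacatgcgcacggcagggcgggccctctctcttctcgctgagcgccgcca
Rpl3l, chr17:24727746-24727845, plus strand: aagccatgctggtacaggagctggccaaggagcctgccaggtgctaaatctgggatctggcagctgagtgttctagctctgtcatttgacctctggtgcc
Rps25, chr9:44407634-44407733, plus strand: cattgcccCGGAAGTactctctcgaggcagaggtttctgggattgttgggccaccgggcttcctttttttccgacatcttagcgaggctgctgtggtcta
Rpl39, chrX:37085203-37085302, minus strand: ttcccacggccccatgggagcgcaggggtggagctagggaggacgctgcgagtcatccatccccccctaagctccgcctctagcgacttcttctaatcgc

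The promoter table held a window of 300 bases (250 before and 50 after the start) for 41 of the 47 genes. On either strand of this window, CTTTCC lay in 22 of the 41 (53.7%) and in 29.3% of the 27025 genes with a window. CGGAAGT was found in 13 (31.7%, against 7.2% of all genes), and AANATGGC in 7 (17.1%, against 6.96%). On the gene's own strand between 30 bases before and 50 after the start, CTTTCC lay in 11 (26.8%, against 4.36%). Matches were counted for each motif separately. Among the 23 genes with a window that were called higher in ICAM1-positive cells (the call is defined below), CGGAAGT lay in 6, and among the 18 that were not called, in 7. CTTTCC near the start lay in 8 of the 23 and 3 of the 18. Of the sequences printed, Rps6 holds CGGAAGT at 2 places, while Rps25, whose intensity hardly differed between the sorts, holds it as well. Rpl22l1 and Rps24, which differed by more than 1 on the log2 scale, hold none of the 3 in the stretch shown. These are matches of letters and describe no bound factor.

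Ribosomal protein messages were on the whole brighter in the ICAM1-positive cells. Of the 47 genes, each represented by its brightest kept probe set, 25 rose in the ICAM1-positive sort (53.2%; over all 16399 genes 20.6% were called higher) and 0 fell (20.8% of all genes were called lower). A gene was called where limma's adjusted p, corrected by Benjamini-Hochberg over all 38694 kept probe sets, was below 0.05. The difference was positive in 45 genes and negative in 2, and its median was 0.65 on the log2 scale, a 1.57-fold difference, with a middle range of 0.52 to 0.80. The median over all genes was -0.06. Among probe sets, 40 of 97 were called higher (41.2%, against 16.9% of all kept probe sets) and 0 lower (against 18%), with a median of 0.67.

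How many of these genes are called depends strongly on the scaling and on each litter. With quantile normalization, which forces all arrays to the same distribution, 9 of the 47 were called (19.1%, against 20.5% of all genes, a share near the background) and 0 were lower. The median difference was then 0.44, against -0.07 for all genes. The 9 were Rpl37, Rpl22l1, Rps19, Rps6, Rps10, Rplp0, Rpl4, Rps9 and Rpl12. These calls rest on the brightest probe set of each gene. Among the member probe sets 25 of 97 were called, a count whose share over all probe sets is not given here. Genes outside the 9 with another probe set called included Rpl22, Rps24, Rps15, Rpl13a and Rps3. With arrays centred on their median, 19 were called (19.8% of all genes). With litter as a block, 29 were called (61.7%, against 21.3%). Rpl37a, Rps4l, Rpl11, Rpl35 and Rpl27 were then added, and Rpl19 was lost (adjusted p = 0.05225 with the block). Without litter 1, 2 or 3 the count was 4, 11 or 3, and with a single array left out it lay between 8 (without the ICAM1-positive array of litter 1 or 3) and 19 (without the ICAM1-negative array of litter 2), with 0 lower each time. Calls fell over the whole array too when a litter was left out, from 6528 probe sets higher to 3764 without litter 1. The 4 of 47 genes called without litter 1 were no larger a share than these 3764 of 38694 probe sets. For the other leave-out counts of genes, the share over all genes is not given here. Without litter 3, the probe sets called higher were 4 of the 97 members and 3775 of all 38694, so that the members' share was no larger than that of all probe sets. Of the 47 genes, 41 had a positive difference in every one of 19 alternatives that kept them (other scalings, filters, variance models and the block, the mean over a gene's probe sets, and leaving out litters or arrays), including all 25 called genes. Many of these alternatives could not change a sign. The filters, the variance trend and the block leave the fitted difference as it was. A gene that is positive in all 3 litters stays positive without any 1 litter. Likewise, a gene whose ICAM1-positive arrays all lie above the ICAM1-negative ones stays positive without any 1 array. Rpl22l1 and Rps19 were called in each of the 19. The 3 genes Rpl22l1, Rps19 and Rps6 kept their call without each litter in turn, and the other called genes lost it without at least 1 litter.

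The arrays themselves differed at the bright end, where many of these genes lie. The 99th percentile of intensity was 9577, 10029 and 10478 in the negative sort of the 3 litters against 11279, 11738 and 11477 in the positive sort, a log2 difference of 0.20. At the 50th, 75th, 90th and 95th percentiles the log2 difference lay between -0.02 and 0. Of the 47 genes, 24 had a mean intensity above the highest of these 99th percentiles, 11738. Their median difference was 0.62 as deposited and 0.32 after quantile normalization, with 15 and 3 genes called. The other 23 had a median of 0.72 as deposited and 0.65 after quantile normalization, with 10 and 6 called. Over all genes, 20.6% were called higher as deposited and 20.5% after quantile normalization. After quantile normalization the 24 brighter genes were thus called less often than all genes, and the other 23 somewhat more often. Whether the brighter top of the ICAM1-positive arrays comes from the scaling or from the RNA was not tested.

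**Figure D1:**
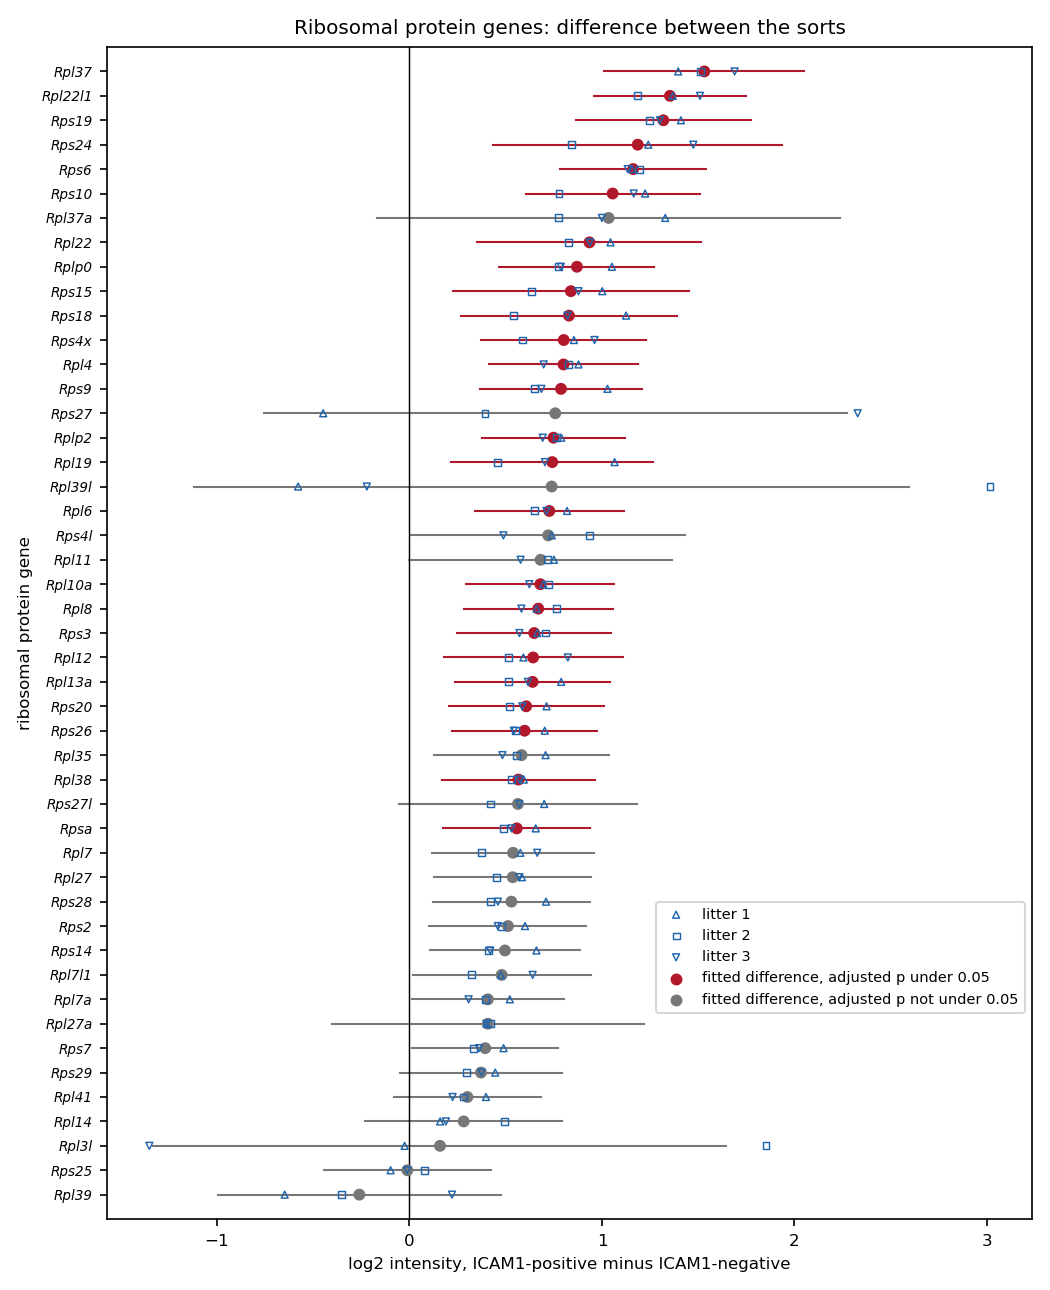
Log2 difference (ICAM1-positive minus ICAM1-negative) of each of the 47 ribosomal protein genes, ordered by size, with the 95% confidence interval of the fit as a line and the difference within each of the 3 litters as small open points; red marks an adjusted p under 0.05 and grey the rest. The difference is above 0 for 45 genes, and the widest intervals belong to dim genes such as Rpl39l, Rps27 and Rpl3l.

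Set apart by litter, the same direction held. The median over the 47 genes was 0.70 in litter 1, 0.55 in litter 2 and 0.59 in litter 3, while the medians over all genes were -0.03, -0.08 and -0.05. The ICAM1-positive array was the brighter in 42, 46 and 44 of the 47 genes. It was brighter in all 3 litters in 42 genes (89.4%; 34.9% of all genes). All 3 ICAM1-positive arrays lay above all 3 ICAM1-negative arrays in 38 genes (80.9%; 27.8% of all genes). The 9 genes whose groups overlapped were Rpl37a, Rps27, Rpl39l, Rps27l, Rpl27a, Rpl14, Rpl3l, Rps25 and Rpl39.

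**Figure D2:**
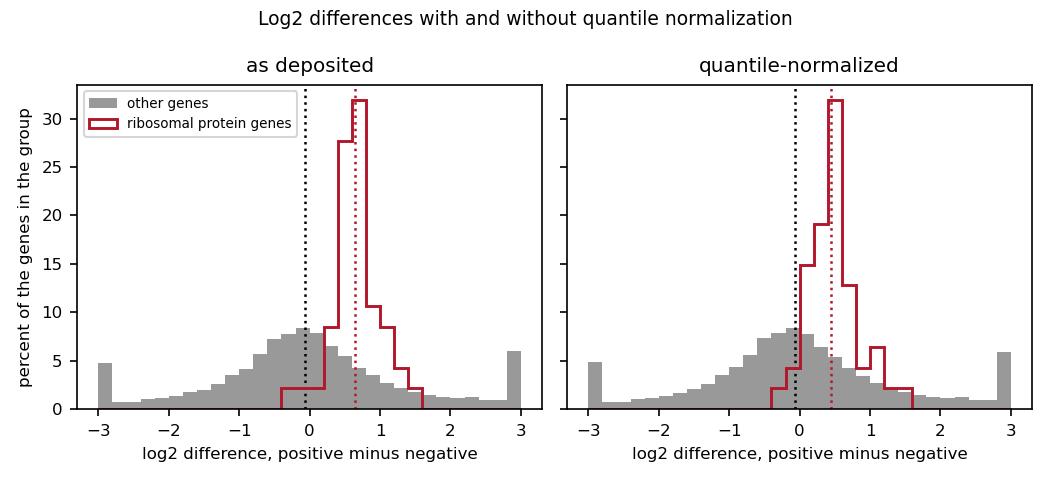
Distribution of the log2 difference (ICAM1-positive minus ICAM1-negative) for the ribosomal protein genes (red outline) and for the other genes (grey), as the percent of each set per bin, as deposited on the left and quantile-normalized on the right, with dotted lines at the medians. Values beyond the ends of the axis are counted in the outermost bins. The ribosomal protein genes form a narrow peak around 0.65 as deposited and 0.44 after quantile normalization, while the other genes spread widely on both sides of 0.

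In the values as deposited, where 20.6% of all genes were called higher, genes of both subunits rose. In the large subunit 13 of 26 genes rose, with a median of 0.66, and in the small subunit 12 of 21, with a median of 0.65; no test was made between them. After quantile normalization 5 of the 26 and 4 of the 21 were called, with medians of 0.43 and 0.48. Both shares were then near the 20.5% of all genes.

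Among large subunit genes the largest differences were those of Rpl37 and Rpl22l1. Rpl37, which encodes a small zinc-binding protein of the large subunit, read 457.2, 588.4 and 466.6 in the ICAM1-negative arrays and 1203, 1676 and 1505 in the ICAM1-positive arrays. The groups were far apart, with a log2 difference of 1.53 ± 0.21 (SE of the fit, adjusted p = 0.002811). Its call was lost without litter 3 (adjusted p = 0.05126). Rpl37 rested on 1 kept probe set, whose x ending marks possible binding to other genes. Rpl22l1, the paralog of Rpl22 that can take its place in the ribosome, read 3984, 4188 and 3878 against 10281, 9505 and 11040. Both groups were tight, and they were separated by a log2 difference of 1.35 ± 0.16 (adjusted p = 0.001574). Rpl22, an RNA-binding protein of the large subunit, read 7458, 11570 and 8615 against 15380, 20483 and 16492 (log2 difference 0.94 ± 0.24, adjusted p = 0.02692). Litter 2 was the brightest in both sorts, and the call was lost after quantile normalization (adjusted p = 0.05999). A dimmer probe set of Rpl22 kept its call then (adjusted p = 0.002378), and a further one was not called (adjusted p = 0.1046).

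The stalk of the large subunit, where elongation factors dock, is formed by Rplp0 with Rplp1 and Rplp2. Rplp0 read 11312, 11590 and 12452 against 23446, 19792 and 21475, so all ICAM1-positive arrays were above all ICAM1-negative ones (log2 difference 0.87 ± 0.16, adjusted p = 0.009116). Its call was lost without litter 1 (adjusted p = 0.1132) or litter 3 (adjusted p = 0.0857). For Rplp2 the values were 11542, 12089 and 12512 against 19938, 20528 and 20214. This gave 0.75 ± 0.15 (adjusted p = 0.01226), and its call was lost after quantile normalization (adjusted p = 0.05448). Rpl11, which with Rpl5 and the smallest ribosomal RNA forms a particle that binds the p53 regulator Mdm2, read 5834, 9297 and 6740 against 9815, 15269 and 10056. The groups did not overlap, but litter 2 was far above the other litters in both. The difference of 0.68 ± 0.28 did not pass the test without the block (adjusted p = 0.1137) and passed with it (adjusted p = 0.03014).

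In the small subunit, Rps19, the gene most often mutated in Diamond-Blackfan anaemia, read 5816, 5024 and 5857 against 15459, 11907 and 14432. All ICAM1-positive values were far above all ICAM1-negative values (log2 difference 1.32 ± 0.19, adjusted p = 0.002988). Rps24 read 5538, 9999 and 5276 against 13085, 17925 and 14661 (1.19 ± 0.31, adjusted p = 0.0285), with litter 2 highest in both sorts. After quantile normalization the adjusted p of this probe set was 0.05356. Some dimmer probe sets of Rps24 were called then (adjusted p = 0.006598, 0.03606 and 0.0146), and others were not (adjusted p = 0.05365 and 0.9273). Rps6, the protein phosphorylated by the S6 kinases downstream of mTOR, read 681, 724.6 and 692.7 against 1518, 1659 and 1520. Its litters differed little, by less than the gap between the sorts (1.16 ± 0.16, adjusted p = 0.002454). Rps10 read 4739, 6391 and 5118 against 11072, 10952 and 11476 (1.06 ± 0.18, adjusted p = 0.00682). Leaving out litter 1 or 3 ended the call of Rps10 (adjusted p = 0.08454 and 0.08862).

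Rpsa, a small subunit protein that is also known as the laminin receptor, had the smallest difference among the genes that were called. It read 14450, 15289 and 15932 against 22767, 21421 and 23002 (0.56 ± 0.16, adjusted p = 0.037). The next smallest were Rpl38, Rps26, Rps20, Rpl13a, Rpl12, Rps3 and Rpl8, between 0.57 and 0.67, with adjusted p between 0.02094 and 0.04452. Of these 8 genes with the smallest called differences, only Rpl12 kept its call after quantile normalization on its brightest probe set. Other probe sets were called then for Rpl13a (adjusted p = 0.005722 and 0.02684) and Rps3 (adjusted p = 0.01505). A further probe set of Rpl13a (adjusted p = 0.06731) and the others of Rps20 and Rpsa were not. The other 9 called genes, among them Rps15, Rps18, Rps4x, Rpl4, Rps9, Rpl19, Rpl6 and Rpl10a, lay between 0.68 and 0.84.

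**Figure D3:**
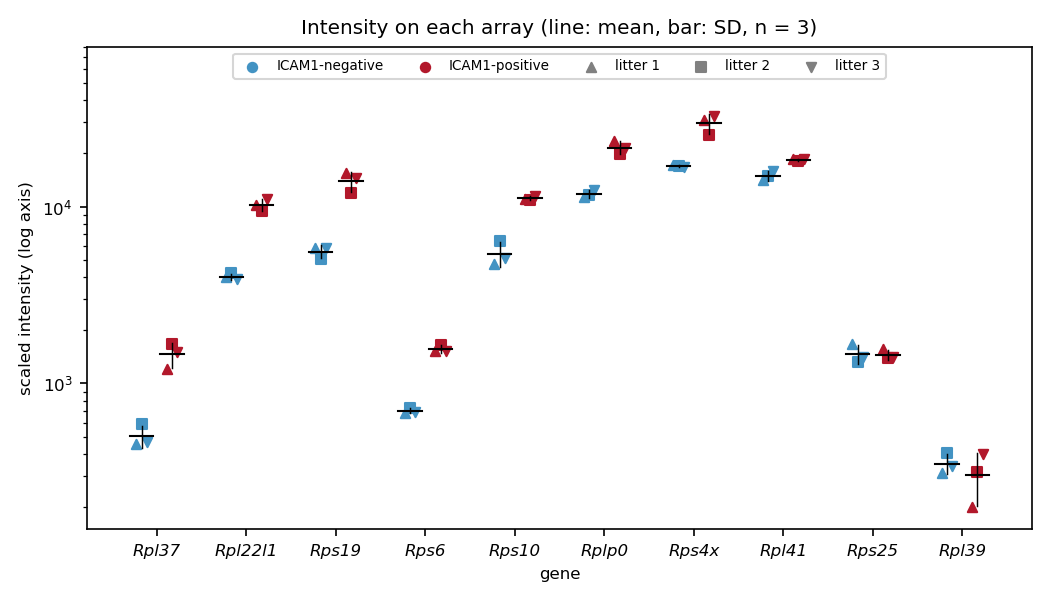
Intensity (log axis) on each of the 6 arrays for 10 ribosomal protein genes, with 1 point per array, its shape giving the litter and its colour the sort; lines mark the mean and bars the SD over 3 arrays. In Rpl37, Rpl22l1, Rps19 and Rps6 the sorts are well apart, while in Rps25 they overlap.

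A few ribosomal protein genes did not follow the rest. Rps25, a small subunit protein needed by some viral internal ribosome entry sites, read 1672, 1321 and 1419 in the ICAM1-negative arrays and 1562, 1393 and 1408 in the ICAM1-positive arrays. The groups overlapped fully, at a difference of -0.01 ± 0.18 and a 95% confidence interval of -0.44 to 0.42 (adjusted p = 0.9693). Rpl39, which lines the exit tunnel for new protein chains, read 311.5, 402.6 and 343.1 against 198.7, 315 and 399.9. The positive array was dimmer in litters 1 and 2 and brighter in litter 3 (-0.26 ± 0.30, adjusted p = 0.5499). Rps25 and Rpl39 each rested on 1 kept probe set, dimmer than those of most members. Among called genes, Rpl37, Rpl12 and Rps6 were dim as well, with ICAM1-negative means of 504.1, 295.5 and 699.4, below the 1471 of Rps25. Rpl37 and Rpl12 also rested on 1 kept probe set each. How well any of these probe sets read their messages was not tested. Rpl41, the smallest ribosomal protein, read 14064, 14897 and 15889 against 18523, 18113 and 18556, without overlap but with a difference of only 0.30 ± 0.16 (adjusted p = 0.1932). After quantile normalization this became -0.02. None of its 4 probe sets was called, and they ranged from -0.05 to 0.31.

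The paralogs with an l suffix differ from their namesakes in where they are used, and several are known from testis or muscle. Of 6 such genes 1 rose (16.7%, near the 20.6% of all genes), Rpl22l1, and its namesake Rpl22 rose as well. Rpl7l1 read 1053, 1218 and 885.5 against 1463, 1522 and 1380 (0.48 ± 0.19, adjusted p = 0.1019), with 1 of its 3 probe sets called higher, beside 0.54 ± 0.17 for Rpl7 (adjusted p = 0.05645). Rps27l, a p53 target, read 1755, 2876 and 2064 against 2851, 3845 and 3066 (0.56 ± 0.25, adjusted p = 0.1406). Its namesake Rps27 was dim on this probe set, at 117.5, 178.5 and 52.4 against 86.1, 234.3 and 263.2, and differed in sign between litters (0.76 ± 0.62, adjusted p = 0.3973). Rps4l read 62, 93.5 and 94.4 against 103.5, 178.7 and 132.4 (0.72 ± 0.29, adjusted p = 0.109; 0.80 ± 0.17 for the X-linked Rps4x, adjusted p = 0.01572). The groups did not overlap, although its ICAM1-negative values were below or near the array medians of 87.9 to 102.8. Rpl39l, between 4.5 and 36.4, and Rpl3l, a muscle paralog of Rpl3, between 7.7 and 27.8, were near background on every array, so their differences carry no size (adjusted p = 0.5017 and 0.8692). Without the l paralogs, 24 of 41 genes rose, with the same median of 0.65.

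Many of these genes have near-identical processed pseudogenes and several probe sets, so the assignment of a signal to a gene is uncertain. Of 22 genes with 2 or more kept probe sets, all probe sets were positive in 18, both signs occurred in 4, and in 0 were probe sets called in opposite directions. Rps10 had 6 probe sets, of which 5 were called higher. In one of these the values were 469.9, 1277 and 591.2 against 1851, 9826 and 4222, a log2 difference of 2.59 ± 0.69, the largest of all members. The sixth was dim, at 113.8 to 153.1 on all arrays, with a difference of -0.09 ± 0.20. Rps20 had 2 bright probe sets with positive differences of 0.61 and 0.77, the first of which was called. Its 2 dim ones, between 137.4 and 268, lay at -0.41 and -0.30 and were not called. For Rps6 the second probe set was near background (6.6 to 35.4).

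Affymetrix marks probe sets that may bind more than 1 transcript by their endings. Among kept members, 9 of 29 with the plain ending were called higher, at a median of 0.54. With the a ending, which marks transcripts of the same gene, it was 16 of 27 (0.75). With the x ending, which marks possible binding to other genes, it was 12 of 38 (0.63), and with the s ending, for transcripts of different genes, 3 of 3 (0.94). Over all kept probe sets of any ending, 16.9% were called higher and 18% lower. Their shares by ending were not counted. Limited to plain endings, 8 of 24 genes were called, at a median of 0.55, beside 20.6% of all genes whatever their ending. The 108 kept probe sets that listed a ribosomal protein symbol beside others were called higher in 39 cases (36.1%, against 16.9% of all). They were called lower in 2 (against 18% of all), with a median of 0.71. The 2 that fell read 2535, 3541 and 2127 against 1056, 1661 and 1118 and, in the dimmer one, 271.4, 185.7 and 215.8 against 111.4, 73.9 and 95.7. They name no single gene.

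A sign of RNA quality differed between the sorts for Gapdh, while for Actb it overlapped. The log2 ratio of the 3′ to the 5′ control probe set of Gapdh was 1.11, 1.24 and 1.05 in the ICAM1-negative arrays and 1.54, 1.63 and 1.49 in the ICAM1-positive arrays, without overlap. For Actb the ratio was 1.43, 1.72 and 1.43 against 1.25, 1.70 and 1.35, and the groups overlapped. The 3 control probe sets for ribosomal RNA of the small subunit differed by -0.28, 0.05 and -0.48 on the log2 scale. Litter 2 was the highest of the litters in 62 of 97 member probe sets (63.9%), measured as the mean of its arrays, and in 23 of 47 genes (48.9%; 35.3% of all genes). The part of these in the ribosomal protein differences was not tested. Across the 47 genes the log2 difference bore little relation to mean log2 intensity (Pearson's r = 0.152, Spearman's rho = -0.11; genes share the arrays and are not independent).

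Other genes of the translation machinery were taken from lists, whose counts stand beside the 20.6% of all genes that were called higher and the 20.8% called lower. Of the 36 list genes named below, 11 kept their call without each litter in turn: Deptor, Eef1d, Map3k20, Mrpl43, Myc, Mycn, Pdcd4, Rps6ka6, Rps6kc1, Rps6kl1 and Utp20. Fau, which encodes a small subunit protein fused to a ubiquitin-like domain and lies outside the symbol rule, read 4619, 4835 and 5012 against 8935, 7487 and 8578. It rose by 0.79 ± 0.16 (adjusted p = 0.01361), also after quantile normalization, but was lost without litter 1 (adjusted p = 0.1431) or litter 3 (adjusted p = 0.1159). Adding Rps3a1, whose symbol the rule does not match, would give 26 of 48 genes called. Rps27a and Rack1 had no kept probe set of a single symbol.

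Among 17 measured elongation factors and other genes with TOP messages, 3 rose (17.6%) and 2 fell (11.8%), neither share above that of all genes, with a median of 0.52 (0.36 after quantile normalization, with 2 higher and 1 lower). With the litter block 7 rose and 2 fell. Eef1d, an exchange factor for elongation factor 1, read 3388, 3869 and 3625 against 10013, 10749 and 10390 (1.52 ± 0.16, adjusted p = 0.0009805), far above the spread in either sort. The mean of its 4 probe sets was not called (0.50, adjusted p = 0.1156). Eif4b, an initiation factor with a TOP message, rose by 1.03 ± 0.18 (adjusted p = 0.006217), and the poly(A)-binding protein gene Pabpc1 by 0.61 ± 0.17 (adjusted p = 0.0367), a call lost after quantile normalization (adjusted p = 0.1265). Vim, the intermediate filament vimentin, fell by 2.22 ± 0.34 (adjusted p = 0.003927) and the nucleosome assembly gene Nap1l1 by 0.76 ± 0.23 (adjusted p = 0.04598; 0.05832 after quantile normalization). Elongation factor 1 alpha, Eef1a1, was not called, with 25918, 20238 and 25638 against 29507, 25155 and 29200 (0.23 ± 0.19, adjusted p = 0.3991). Eef2, which moves the ribosome along the message, read 11932, 7457 and 13401 against 18807, 12583 and 18643. Each litter was brighter in the positive sort, and the difference of 0.63 ± 0.30 was called with the block (adjusted p = 0.04072) and not without it (adjusted p = 0.1673).

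Mitochondrial ribosomal proteins, which serve the separate ribosome inside mitochondria, did not share the positive median. Of 76 measured, 18 fell (23.7%, near the 20.8% of all genes) and 5 rose (6.58%, against 20.6%), around a median of -0.25. After quantile normalization 16 fell and 5 rose. Mrpl43 read 1262, 1670 and 1496 against 474.7, 600.3 and 606.1, the largest fall (-1.40 ± 0.20, adjusted p = 0.003278). Mrps5 fell by 0.94 ± 0.25 (adjusted p = 0.02955; 0.06695 with the block) and Mrpl11 by 0.92 ± 0.22 (adjusted p = 0.02308). Mrpl52 rose by 1.05 ± 0.28 (adjusted p = 0.03319), Mrpl48 by 0.91 ± 0.22 (adjusted p = 0.0242) and Mrps28 by 0.68 ± 0.19 (adjusted p = 0.0368). For Mrpl48 the mean of 3 probe sets was not called and pointed down (-0.22). The cytosolic and mitochondrial lists were not tested against each other.

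Among 37 factors that assemble ribosomes, 6 rose (16.2%, near the 20.6% of all genes) and 2 fell (5.41%, against 20.8%), with a median of 0.18. Utp20, part of the early small subunit precursor, read 563.5, 470.3 and 491.4 against 1236, 1165 and 1041 (1.17 ± 0.17, adjusted p = 0.003571). Tsr1, a late small subunit assembly factor, rose by 0.84 ± 0.24 (adjusted p = 0.04239) and Nop10, of the pseudouridylation particle, by 0.70 ± 0.19 (adjusted p = 0.03519). Rpf2, which helps bring the smallest ribosomal RNA into the large subunit, fell by 0.89 ± 0.25 (adjusted p = 0.03923) and Nop56, of the methylation particle, by 0.54 ± 0.15 (adjusted p = 0.03996). Of 14 genes for RNA polymerase I and its cofactors, which transcribe ribosomal RNA, 2 rose (14.3%) and 0 fell (median 0.12). Polr1a, the largest subunit, read 142.7, 188.2 and 150.9 against 414.7, 363 and 315 (1.18 ± 0.20, adjusted p = 0.006396), although the mean of its 5 probe sets was not called (0.28, adjusted p = 0.5335). Polr1b rose by 0.60 ± 0.17 (adjusted p = 0.03582). Of 26 initiation factors 1 rose and 1 fell (3.85% each; median 0.02; 4 and 1 with the litter block): Eif1a rose by 1.04 ± 0.25 (adjusted p = 0.02243), and Eif2b4 fell by 0.90 ± 0.26 (adjusted p = 0.04125).

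**Figure D4:**
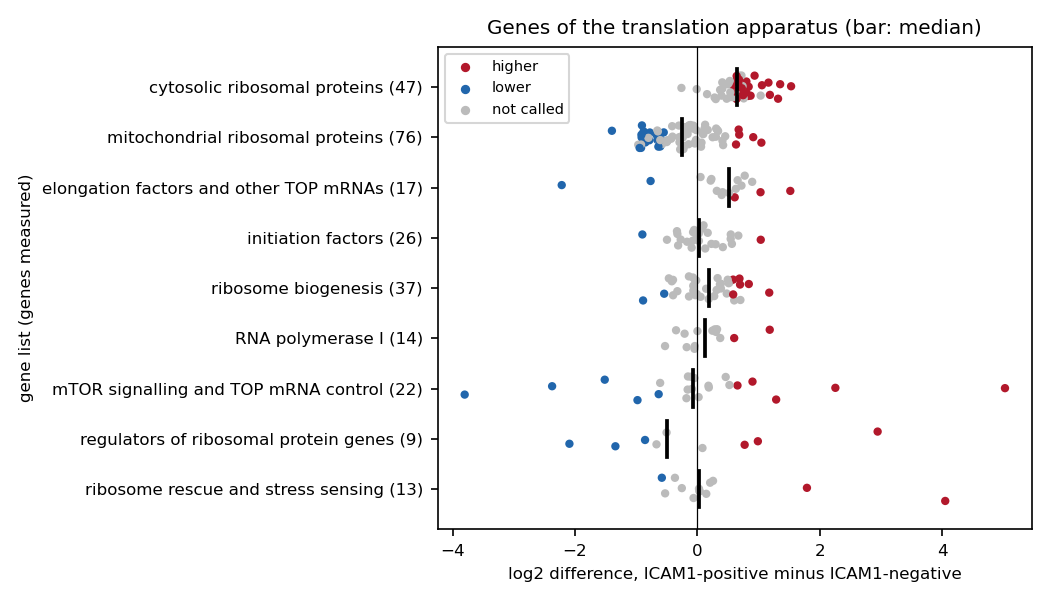
Log2 difference (ICAM1-positive minus ICAM1-negative) of each gene in the cytosolic ribosomal protein set and in the other lists of the translation machinery, with 1 point per gene, coloured by its call, and a bar at the median of each list. The cytosolic genes lie at a median of 0.65 and mitochondrial ribosomal proteins at -0.25; Deptor and Map3k20 are the highest points.

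Of 22 genes of mTOR signalling and control of TOP messages, 5 rose and 5 fell (22.7% each, close to the shares over all genes), with a median of -0.07. Deptor, an inhibitor that binds mTOR, read 74.1, 63.8 and 72.4 against 1772, 2848 and 2356 (5.03 ± 0.23, adjusted p = 0.0001478). Its ICAM1-negative values lay below the array median, so the size of the difference is uncertain. Pdcd4, a translation inhibitor degraded after phosphorylation by S6 kinase, read 723.8, 861.1 and 756.1 against 4125, 3626 and 3430 (2.26 ± 0.17, adjusted p = 0.0003887). The kinase gene Rps6ka3 rose by 1.29 ± 0.24 (adjusted p = 0.008609), which the mean of its 3 probe sets did not show as a call (0.44, adjusted p = 0.2527). Of the other kinase genes, Rps6kl1 read 168.7, 128.8 and 141.5 against 21.1, 11.9 and 4.5 (adjusted p = 0.003595); the positive arrays were near background, so the fall carries no size. Rps6kc1 fell by 2.37 ± 0.26 (adjusted p = 0.001191) and Rps6ka6 by 1.51 ± 0.19 (adjusted p = 0.001906). Mtor itself (-0.09 ± 0.16, adjusted p = 0.7104) and Larp1 (-0.18 ± 0.20, adjusted p = 0.5484) were not called.

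Of 9 transcription regulators of ribosomal protein genes, 3 rose and 3 fell (33.3% each, against 20.6% and 20.8% of all genes). Myc, a broad activator of ribosome production, read 71.5, 71.6 and 71 against 576.6, 586.8 and 492 (2.95 ± 0.16, adjusted p = 0.0001782), again from below the array median. Mycn, its neural relative, went the other way, from 321.9, 299.8 and 285.7 to 42.8, 96.8 and 86 (-2.09 ± 0.34, adjusted p = 0.005137). Gabpa, the DNA-binding subunit of GABP, rose by 0.99 ± 0.24 (adjusted p = 0.02453), and its partner Gabpb1 fell by 1.34 ± 0.25 (adjusted p = 0.008888). Sp1 rose by 0.77 ± 0.20 (adjusted p = 0.0267) and Max, the partner of Myc, fell by 0.86 ± 0.20 (adjusted p = 0.02064). Among 13 genes that sense or rescue stalled ribosomes 2 rose (15.4%) and 1 fell (7.69%), no more than the shares over all genes. Map3k20, the kinase ZAK that is activated by collided ribosomes, read 311.7, 285.5 and 277.7 against 4718, 5409 and 4413 (4.05 ± 0.17, adjusted p = 0.0001329). Eif2ak4, the amino acid sensor GCN2, rose by 1.79 ± 0.26 (adjusted p = 0.003568), and the rescue factor gene Hbs1l fell by 0.58 ± 0.17 (adjusted p = 0.04665; 0.05139 after quantile normalization). Of 12 proliferation genes 0 rose and 3 fell, with summed intensities of 24447 to 30280 in the ICAM1-negative and 24704 to 26375 in the ICAM1-positive arrays, ranges that overlap.

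**Figure D5:**
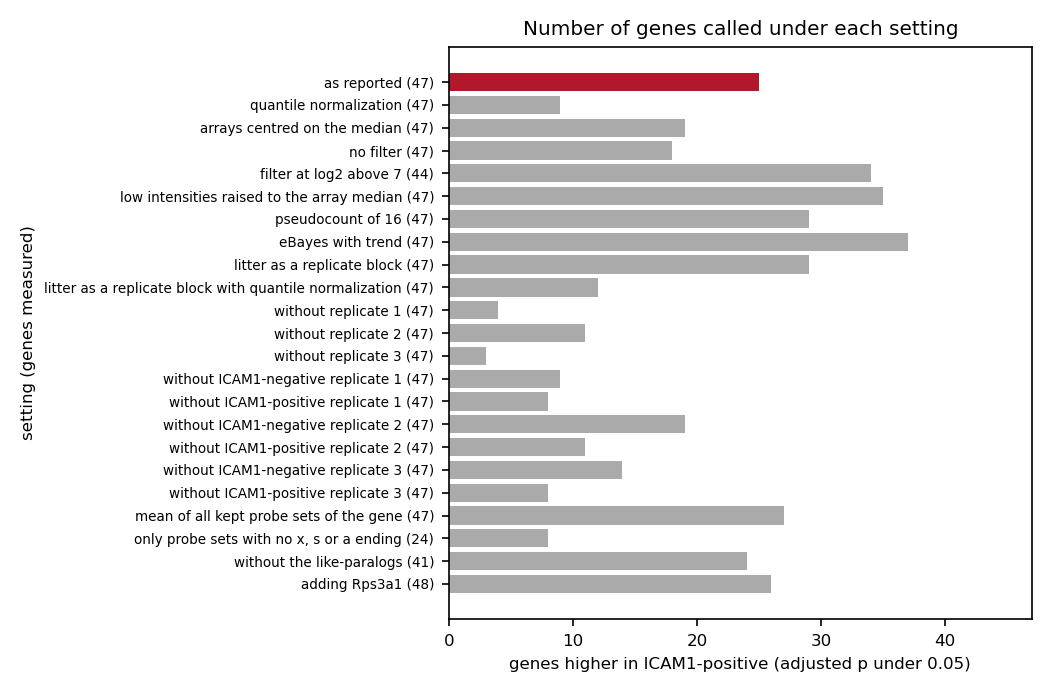
Number of ribosomal protein genes called higher in ICAM1-positive cells under each way of processing the data, with the number of genes measured in brackets; replicates are the litters. The count runs from 3 without litter 3 to 37 with an intensity trend in the variance, beside 25 as reported. The share of all genes called under each setting is not shown.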

How the data were processed

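Each sort and litter was measured on 1 Affymetrix mouse genome array. The authors deposited linear intensities whose mean after trimming 2% from each end is 500 on every array; GCRMA, named by the submitters' processing notes and by the series design, would give log2 values, so these were treated as scaled intensities of unstated software. No detection calls or scan dates were used here. Symbols came from the platform annotation, in which 34958 probe sets have 1 symbol.

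After the log2 transform and removal of 64 control probe sets, those above 4 (intensity 16) on at least 3 arrays were kept. Differences, ICAM1-positive minus ICAM1-negative, came from limma (version 3.58.1, under R 4.3.3; lmFit, eBayes), without a block, adjusted over 38694 probe sets, threshold 0.05; the code was tested on simulated data. Errors beside a log2 difference are SE of the fit. The same litter number marks the same litter per the series text; deviations of arrays of a litter from their group means correlated at 0.13, 0.20 and 0.08, and litter as a block was an alternative.

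Named were the 8 largest and 8 smallest called differences, l paralogs with namesakes, the stalk genes, Rpsa, Rpl5, Rpl11, Rps6, genes outside the symbol rule, and up to 3 called genes each way per list. Rps25, Rpl39, Rpl41 and the other members were named after their values were seen. The members and lists were chosen with earlier results of these data known. Alternatives were other normalizations, filters, variance models, probe set rules, the block, and leaving out litters or arrays; Rps3a1 was added after the data were seen.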

Additional observations from a re-analysis of the deposited data

How the results depend on the processing

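The count of ribosomal protein genes called higher (25 of 47) and of probe sets (40 of 97) changed with the processing more than the direction did. Filters, the variance trend and the block cannot change a direction, since they leave the fitted difference as it was. Quantile normalization gave 9 genes, 25 probe sets and a median difference of 0.44, and the same with litter as a replicate block gave 12 genes and a median of 0.44. The block alone gave 29 genes and 60 probe sets; it changed the calls of 6 members, and among the list genes 17 calls were gained and 5 lost (Nop16, Mrpl22, Mrpl34, Mrpl37 and Mrps5). A filter at log2 above 7 gave 62 probe sets, raising low intensities to the array median 64, and an intensity trend in the variance 70. For these settings the share over all probe sets is not given here. The counts therefore do not show whether the members gained more calls than other probe sets. Probe sets with plain endings alone gave 9 probe sets, 8 genes and a median of 0.55, and adding probe sets with several symbols gave 79 higher and 2 lower. Leaving out a litter or an array gave between 3 and 19 genes, 4 and 42 member probe sets, and medians of 0.57 to 0.69; over the whole array it gave 3764 to 5854 probe sets called higher and 3678 to 6013 probe sets called lower. Genes that were not called changed sign at times. Rpl41 was at -0.02 with quantile normalization, with and without the block. With low intensities raised, Rpl39l and Rpl3l were both at -0.0004. Leaving out litters or arrays, Rpl39l ranged from -0.40 (without litter 2; -0.08 without its ICAM1-negative array) to 1.397, and Rpl3l from -0.69 (without litter 2; -0.38 and -0.15 without its ICAM1-negative or ICAM1-positive array) to 0.91. Rps25 ranged from -0.085 to 0.085, being above 0 without litter 1 or its ICAM1-negative array (0.033 and 0.085) and without the ICAM1-positive array of litter 2 or 3 (0.019 and 0.011). Rps27 ranged from -0.028 (without litter 3) to 1.36, and Rpl39 from -0.50 to 0.018 (without the ICAM1-positive array of litter 1). Mrpl48, called from its brightest probe set, was at -0.22 as the mean of its probe sets. The cause of these changes was not tested. Signal near background limits Rpl39l, Rpl3l and the second probe set of Rps6.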
